A study of Mus musculus with 20 samples.

Results

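Selenbp2, Serpina4-ps1, Hsd3b5, Mup3, Mup20, Elovl3, Cyp7b1 and Cyp4a12a are liver genes known from earlier work to be higher in male than in female mice and to depend on the pulses of growth hormone (GH). These 8 genes, of 46078 in the table of counts, were taken as members of that class and were chosen by their measured levels in Cse-/- and Cse+/- livers on a diet without cysteine, where Selenbp2 and Serpina4-ps1 were very low in Cse-/- mice. Every difference of these genes that involves a group without cysteine is therefore given as a description, with no test. Tests of these genes are confined to comparisons among the groups on the control diet, on the diet without tryptophan and on that diet with BSO. Earlier results of those groups were known when the genes were chosen, although their values are not part of the rule. All 8 genes passed the filter on low counts, which kept 14759 genes.

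GH reaches the liver of male mice in sharp pulses separated by long gaps and that of females almost continuously. Each pulse acts through the GH receptor and the kinase JAK2 to switch on the transcription factor STAT5, and the gaps let the signal decay, which sets up male-biased expression of pheromone carriers, steroid enzymes and cytochromes P450. When the pulses are lost, as after removal of the pituitary, male-biased genes are known to fall and part of the female-biased genes to rise.

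The livers came from male mice of a mixed 129/C57BL/6 background at least 9 weeks old. Cse-/- mice lack cystathionine γ-lyase, the enzyme that makes cysteine from cystathionine, so that they depend on cysteine from food. The sample labels call the control genotype WT, whereas the study's list of mice calls it heterozygous, and it is written Cse+/- here. All mice had eaten a calorie-restricted control diet for 3 days and were then kept for 2 days on a calorie-restricted diet of defined amino acids. Cse+/- mice received the control diet (n = 2), the diet without tryptophan (no-Trp, n = 3) or that without cysteine (no-Cys, n = 4). Cse-/- mice received the no-Trp diet (n = 3), the no-Trp diet with L-buthionine sulfoximine (BSO), an inhibitor of glutathione synthesis (n = 4), or the no-Cys diet (n = 4). The knockout is present in the whole body, no Cse-/- mouse on the control diet is among these libraries, and neither is a Cse+/- mouse given BSO. Each library is 1 liver.

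Libraries held 11785740 to 57986121 counts on genes, with a median of 15252745. Cth, the gene for cystathionine γ-lyase, was at 88.4 CPM (counts scaled to library size) or more in every Cse+/- liver and at 14.4 CPM or less in every Cse-/- liver. Xist was at most 0.929 CPM. Albumin and the other hepatocyte markers were high throughout, with a summed level of 6 markers between 44142 and 115563 CPM. That sum was lower in the Cse-/- no-Cys livers (44142 to 71136 CPM) than in the Cse+/- no-Cys livers (88129 to 115563 CPM), where the edgeR test called Alb, Apoa1 and Ttr lower. The summed level of 5 red cell markers was also lower, at 69.1 to 114 CPM against 201 to 406 CPM, and the 5 of 5 were called. Mitochondrial genes took 3.62 to 3.99% of counts in the Cse-/- and 5.17 to 5.84% in the Cse+/- no-Cys livers, and the 10 most abundant genes took 12.5 to 15.1% and 16.8 to 18.7%. The mitochondrial share was 3.45 to 3.89% in the BSO livers, without overlap with the Cse-/- no-Trp (4.03 to 4.81%) and Cse+/- no-Trp livers (4.40 to 4.76%), and 5.25 to 5.43% in the control livers, without overlap with the Cse+/- no-Trp livers. The share of the 10 most abundant genes was 16.1 to 16.8% in the Cse+/- no-Trp and 18.7 to 19.0% in the control livers. Adipocyte markers were near 0 except in mouse av17 of the Cse+/- no-Trp group, at 31.3 CPM for 4 genes, and in mouse av14 of the Cse-/- no-Trp group, at 13.2 CPM. The part of these markers and shares in the results was not tested, and bulk RNA cannot tell fewer cells of a type from less RNA per cell.

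Of the members, 3 lie on chromosome 3, 3 on chromosome 4 and 1 each on chromosomes 12 and 19 of the GRCm38 build. Selenbp2 (ENSMUSG00000068877, + strand) is at chr3:94693556-94704413, Hsd3b5 (ENSMUSG00000038092, - strand) at chr3:98618634-98630252 and Cyp7b1 (ENSMUSG00000039519, - strand) at chr3:18071950-18243338. Cth is on the same chromosome at chr3:157894248-157925077, 63.2 Mb from Selenbp2, 59.3 Mb from Hsd3b5 and 140 Mb from Cyp7b1. Mup20 (ENSMUSG00000078672) and Mup3 (ENSMUSG00000066154) lie near each other on the - strand at chr4:62050234-62054158 and chr4:62083476-62087342. Cyp4a12a (ENSMUSG00000066071, + strand) is at chr4:115299046-115332815 and Elovl3 (ENSMUSG00000038754, + strand) at chr19:46131897-46135694. Serpina4-ps1 (ENSMUSG00000092075, + strand), at chr12:104080649-104086724, is annotated as an unprocessed pseudogene, a disabled copy in the cluster of serine protease inhibitors.

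Several members have close copies, so their counts depend on short stretches that differ. Selenbp2 and Selenbp1 have coding sequences of 1416 bases each that differ at 18 positions, an identity of 98.7%, and 47.6% of all stretches of 61 bases, the length of 1 read end, are the same in both. Cyp4a12a and Cyp4a12b (1524 bases each) differ at 23 positions, an identity of 98.5%. Hsd3b5 and Hsd3b2 are 79.9% identical and share no such stretch, but 16.4% of the 61-base stretches of Hsd3b5 transcripts occur in 6 other genes, mostly in Hsd3b4 (15.4%). The stretch of 61 coding bases that separates each of the close pairs best is given from the GENCODE transcripts, with the 4 differing bases of each in capitals. It runs from coding base 389 to 449 in the Selenbp pair and from 494 to 554 in the Cyp4a12 pair.
Selenbp2: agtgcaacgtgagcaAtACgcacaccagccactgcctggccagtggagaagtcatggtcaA
Selenbp1: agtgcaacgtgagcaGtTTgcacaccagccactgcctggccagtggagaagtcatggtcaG
Cyp4a12a: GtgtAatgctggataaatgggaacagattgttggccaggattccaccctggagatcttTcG
Cyp4a12b: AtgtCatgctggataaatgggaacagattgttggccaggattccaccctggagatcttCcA

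Promoter sequence from RefSeq (GRCm38.p6) was matched for 3 members, Selenbp2, Mup3 and Hsd3b5. The Hsd3b5 window (chr3:98645485-98645784, - strand) lies upstream of the GENCODE gene, whose start is at base 98630252. It does not cover that start, so that nothing is known here of the sequence there. None of the 3 windows, from 250 bases before to 50 after the start, held the palindrome TTCNNNGAA that STAT5 and BCL6 are known to bind, which 8.30% of 32851 windows in the table hold. The letters ATTGAT, read on both strands, are the core that ONECUT1, a liver transcription factor, is known to recognise, and were searched after the sequences had been seen. The 250 bases before the start held them at 2 places in Mup3 and at none in Selenbp2 and Hsd3b5, and 6.72% of all such windows hold them. The windows of Selenbp2 (chr3:94693323-94693572, + strand) and Mup3 (chr4:62087318-62087567, - strand), whose RefSeq and GENCODE starts lie close together, are printed because both genes were lowest in the Cse-/- no-Cys livers. The capitals mark the ONECUT1 core.
Selenbp2 promoter: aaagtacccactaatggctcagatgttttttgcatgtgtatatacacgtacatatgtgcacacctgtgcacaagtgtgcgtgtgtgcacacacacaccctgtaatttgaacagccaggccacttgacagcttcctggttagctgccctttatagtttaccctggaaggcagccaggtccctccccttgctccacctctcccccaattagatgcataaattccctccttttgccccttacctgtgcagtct
Mup3 promoter: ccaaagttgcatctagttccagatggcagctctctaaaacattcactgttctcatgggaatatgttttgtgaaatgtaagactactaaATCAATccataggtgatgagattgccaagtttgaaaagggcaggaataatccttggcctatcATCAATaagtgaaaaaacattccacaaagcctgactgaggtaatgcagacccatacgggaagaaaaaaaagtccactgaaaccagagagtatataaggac

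**Figure D1:**
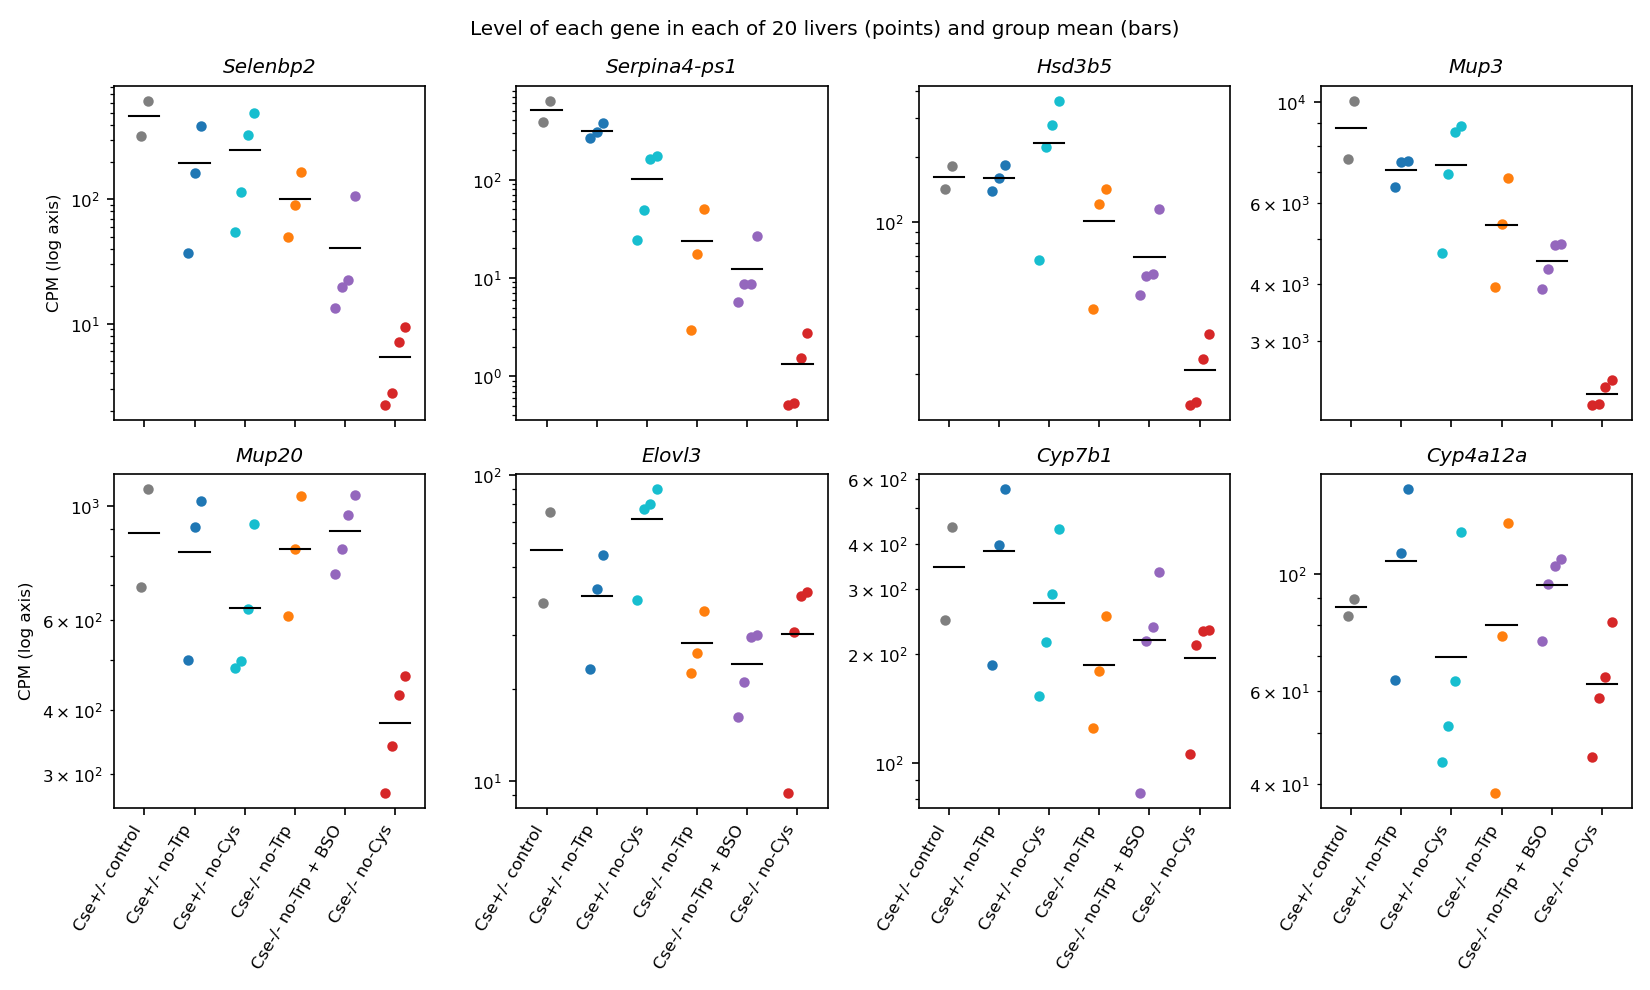
Level of the 8 genes in CPM (log axis) in each of 20 livers, by group, with bars at the group mean. Selenbp2, Serpina4-ps1, Hsd3b5, Mup3 and Mup20 were lowest in the Cse-/- no-Cys livers without overlap with the Cse+/- no-Cys livers, whereas Cyp7b1, Cyp4a12a and Elovl3 overlapped.

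Per kilobase of exon, the members spanned a wide range in the Cse+/- control livers. The pheromone carrier Mup3 was highest, at 8206 CPM per kb, followed by Mup20 at 954, Serpina4-ps1 at 393 and Selenbp2 at 208 CPM per kb. Cyp7b1 (159), Hsd3b5 (104), Cyp4a12a (35.7) and Elovl3 (28.7 CPM per kb) were lower. In the Cse-/- no-Cys livers Serpina4-ps1 was the lowest of the 8, at 1.03 CPM per kb.

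Selenbp2 encodes a member of the selenium-binding protein family. It was at 617 and 326 CPM in the Cse+/- control livers, at 389, 164 and 37.1 CPM in the Cse+/- no-Trp livers, and at 493, 332, 115 and 55.0 CPM in the Cse+/- no-Cys livers. The Cse-/- no-Trp livers held 165, 89.9 and 49.9 CPM, and with BSO the levels were 106, 22.6, 19.7 and 13.4 CPM. In the Cse-/- no-Cys livers they were 9.37, 7.14, 2.79 and 2.23 CPM. All 4 of these lay below every other liver, whereas each other group overlapped the next in the order of their means. Without cysteine, the mean of the Cse+/- livers was 249 ± 202 CPM (SD, n = 4). That of the Cse-/- livers was 5.38 ± 3.45 CPM (SD, n = 4), with a log2 fold change of -5.53 ± 0.90 (SE). Within the Cse+/- no-Trp and no-Cys groups, single livers differed by 10.5-fold and 8.97-fold, the widest spread of Selenbp2 in any group.

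Selenbp1, which oxidises methanethiol, did not share this pattern although it is nearly the same in sequence. It ranged from 110.0 to 225 CPM over the 20 livers. Its mean in the Cse-/- no-Cys livers was close to that in the Cse+/- no-Cys livers, with a log2 fold change of 0.05 ± 0.11 (SE, edgeR adjusted p = 0.801). In 2 comparisons Selenbp1 passed the test in the upward direction, by a log2 fold change of 0.47 ± 0.12 in Cse-/- no-Trp + BSO against Cse+/- no-Trp livers (edgeR adjusted p = 0.0144) and by 0.50 ± 0.12 in Cse+/- no-Cys against Cse+/- no-Trp livers (edgeR adjusted p = 0.0149). The Cse+/- no-Trp livers, at 110.0 to 145 CPM, lay below every other liver in Selenbp1.

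**Figure D2:**
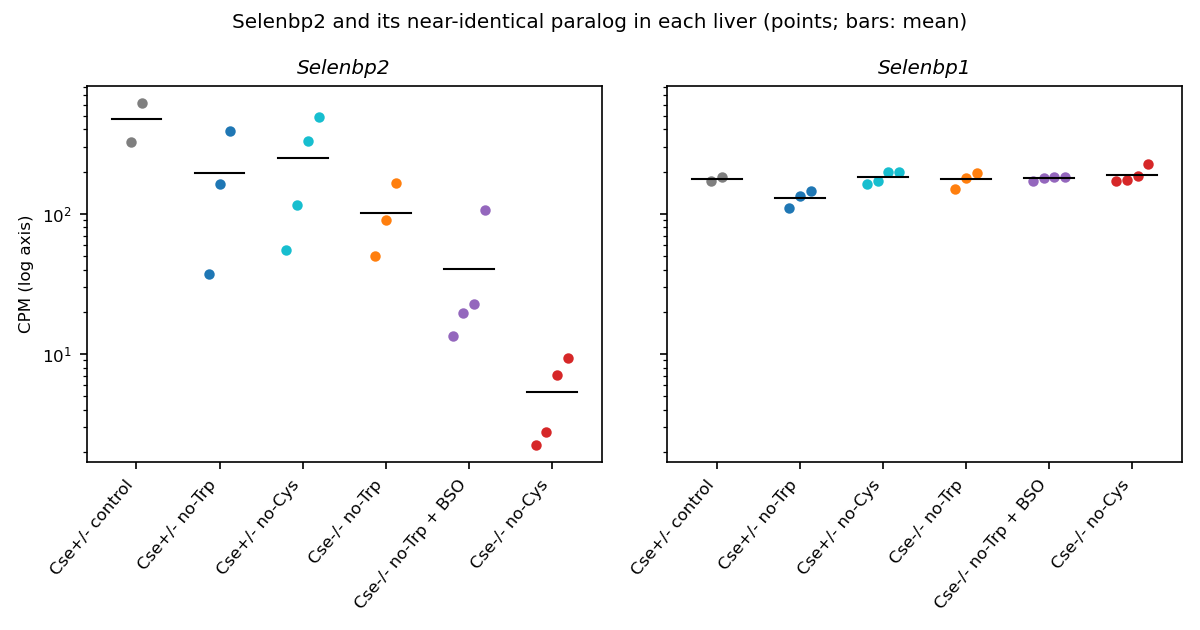
Levels of Selenbp2 and of Selenbp1, which is 98.7% identical in coding sequence, in CPM (log axis) in each liver, by group, with bars at the mean. Selenbp2 ran from 617 CPM down to 2.23 CPM, while Selenbp1 stayed between 110.0 and 225 CPM.

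Serpina4-ps1, the pseudogene, reached the lowest levels of the 8. It was at 628 and 383 CPM in the Cse+/- control livers and at 374, 307 and 266 CPM in the Cse+/- no-Trp livers. The Cse+/- no-Cys livers held 173, 160.3, 48.7 and 24.1 CPM, so that the 3 Cse+/- groups did not overlap one another. In Cse-/- mice the no-Trp livers held 50.2, 17.3 and 2.93 CPM, those with BSO 26.7, 8.70, 8.69 and 5.67 CPM, and the no-Cys livers 2.73, 1.55, 0.531 and 0.513 CPM, the last from 7 to 37 counts in each library. The Cse-/- no-Cys livers lay below all others, with a log2 fold change of -6.27 ± 0.87 against Cse+/- no-Cys livers. Over all diets, 9 of 11 Cse-/- livers lay below the lowest Cse+/- liver. No stretch of 61 bases of Serpina4-ps1 transcripts occurs in another gene.

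The steroid enzymes among the members are Hsd3b5, a ketosteroid reductase of male mouse liver, and Cyp7b1, an oxysterol hydroxylase. Hsd3b5 was at 181 and 142 CPM in the Cse+/- control livers and at 182, 159 and 139.5 CPM in the Cse+/- no-Trp livers. It was at 360.2, 280.0, 222 and 66.9 CPM in the Cse+/- no-Cys livers, 3 of which were above every other liver. The Cse-/- no-Trp livers held 143, 121 and 40.0 CPM, those with BSO 116, 57.6, 56.9 and 46.2 CPM, and the no-Cys livers 30.5, 23.6, 14.96 and 14.5 CPM. All Cse-/- no-Cys livers were again below the rest, with a log2 fold change of -3.48 ± 0.45 against Cse+/- no-Cys livers. Zfp697 overlaps Hsd3b5 on the other strand, and no source used here states whether the counting used strand. Pitx3 overlaps Elovl3 in the same way, and Gm23686 overlaps Cyp7b1 on the same strand.

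The ranges of Cyp7b1 overlapped more. Group means ran from 186 ± 64.1 CPM (SD, n = 3) in Cse-/- no-Trp livers to 382 ± 189 CPM (SD, n = 3) in Cse+/- no-Trp livers, and each group overlapped the next. Among the Cse-/- no-Cys livers 3 were at 211 to 232 CPM and mouse av08 was at 106 CPM.

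The major urinary proteins carry pheromones into urine. Mup3 was at 10021 and 7507 CPM in the Cse+/- control livers, at 7403, 7380.5 and 6509 CPM in the Cse+/- no-Trp livers and at 8825, 8586, 6932 and 4662 CPM in the Cse+/- no-Cys livers. The Cse-/- no-Trp livers held 6809, 5390.2 and 3938 CPM, those with BSO 4894, 4857, 4313 and 3903 CPM, and the no-Cys livers 2457, 2374, 2182 and 2174 CPM. The Cse-/- no-Cys livers formed a tight group below all others, at 2297 ± 141 CPM (SD, n = 4) and a log2 fold change of -1.66 ± 0.18 against Cse+/- no-Cys livers.

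Mup20, the male pheromone known as darcin, differed less. It was at 275 to 465 CPM in the Cse-/- no-Cys livers and at 483 to 924 CPM in the Cse+/- no-Cys livers. These ranges did not overlap, but the gap between them was narrow, and the log2 fold change was -0.75 ± 0.24. In the 3 groups on the no-Trp diet and in the control group, Mup20 was at 501 to 1078 CPM. Of its 61-base stretches 46.8% occur in other genes, mostly Mup pseudogenes, against 8.44% for Mup3, so that its counts are less certain.

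Elovl3 and Cyp4a12a act on fatty acids. Elovl3, an elongase of very long chains, was at 77.3 to 89.6 CPM in 3 Cse+/- no-Cys livers and at 38.9 CPM in the other (mouse av01). It was at 40.1 and 41.3 CPM in 2 Cse-/- no-Cys livers, at 30.6 CPM in another and at 9.15 CPM in mouse av08. The log2 fold change was -1.24 ± 0.37, but the groups overlapped, and the Cse-/- no-Trp (22.6 to 36.0 CPM) and BSO livers (16.2 to 29.9 CPM) were as low. Cyp4a12a, a hydroxylase of fatty acids, was at 45.0 to 81.2 CPM in the Cse-/- no-Cys livers and at 44.1 to 120.3 CPM in the Cse+/- no-Cys livers, with a log2 fold change of -0.17 ± 0.32. This value changed sign, to 0.23, without mouse av02. The gene shares 44.3% of its 61-base stretches with Cyp4a12b.

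Without cysteine, 5 of the 8 genes thus had ranges that did not overlap between the genotypes, all lower in Cse-/- mice, where 11.2% of all tested genes were lower without overlap. The median log2 fold change of the 8 was -1.45, against -0.01 over all genes. Against the Cse-/- no-Trp livers, the Cse-/- no-Cys livers were also lower without overlap for Selenbp2, Serpina4-ps1, Hsd3b5, Mup3 and Mup20 (9.83% of all genes were), by log2 fold changes of -4.24 ± 0.88, -4.17 ± 0.87, -2.28 ± 0.45, -1.23 ± 0.19 and -1.13 ± 0.26. Against the BSO livers these were -2.89 ± 0.83, -3.21 ± 0.86, -1.72 ± 0.43, -0.97 ± 0.18 and -1.25 ± 0.25, again without overlap (6.24% of all genes). Elovl3, Cyp7b1 and Cyp4a12a overlapped in both. These comparisons share the Cse-/- no-Cys livers whose values chose the genes, so that nothing is read from the counts.

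In Cse+/- mice, most members overlapped between the no-Cys and the control livers. Serpina4-ps1 alone had ranges that did not overlap the control livers (12.4% of all genes were lower without overlap), with a log2 fold change of -2.31 ± 0.72. The other values lay between -0.92 ± 0.85 for Selenbp2 and 0.53 ± 0.51 for Hsd3b5. Against the Cse+/- no-Trp livers the value of Serpina4-ps1 was -1.63 ± 0.66, the only one of the 8 without overlap (8.56% of all genes were lower without overlap).

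The tested comparisons ask whether the genotype, tryptophan or BSO moved these genes while cysteine was in the diet. In Cse-/- against Cse+/- livers on the no-Trp diet, Serpina4-ps1 fell, by a log2 fold change of -3.73 ± 0.79 (13.3-fold; edgeR adjusted p = 0.0169), with 3 of 3 livers below the lowest Cse+/- liver (9.51% of all genes were lower without overlap). It was the 1 member called, where 2.64% of all genes were called, 1.24% lower and 1.4% higher. The remaining members did not pass, with values from -1.04 ± 0.46 for Cyp7b1 (edgeR adjusted p = 0.235) to 0.02 ± 0.28 for Mup20 (edgeR adjusted p = 0.977). Selenbp2 was at -0.95 ± 0.83 (edgeR adjusted p = 0.577), a value that was 0.01 without mouse av17, Hsd3b5 at -0.66 ± 0.47 and Mup3 at -0.40 ± 0.20. Of the 8 values 7 were negative, with a median of -0.59 against 0.00 over all genes. The call of Serpina4-ps1 was lost without mouse av15 (edgeR adjusted p = 0.0582) or av16 (0.0638), and when only the groups compared were fitted (0.0900), while its log2 fold change stayed at -3.23 or below. With the livers that held adipocyte RNA, av14 and av17, left out together, it was -4.78 ± 0.94 (edgeR adjusted p = 0.0156).

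With BSO added, Cse-/- livers differed from Cse+/- no-Trp livers in 2 members, where 11.9% of all genes were called, 5.4% lower and 6.53% higher. Serpina4-ps1 fell by a log2 fold change of -4.70 ± 0.74 (26.0-fold; edgeR adjusted p = 0.000646), in 4 of 4 livers. Mup3 fell by -0.66 ± 0.19 (1.58-fold; edgeR adjusted p = 0.0274), with all 4 livers below the lowest Cse+/- no-Trp liver (12.1% of all genes were lower without overlap). Selenbp2, at -2.30 ± 0.78 (edgeR adjusted p = 0.0613), and Hsd3b5, at -1.22 ± 0.44 (edgeR adjusted p = 0.0737), missed the threshold, although the ranges of Hsd3b5 did not overlap either (46.2 to 116 CPM against 139.5 to 182 CPM), and mouse av10 was far above the other BSO livers in both. Without av10 both passed, at -3.42 ± 0.79 (edgeR adjusted p = 0.00987) and -1.60 ± 0.45 (edgeR adjusted p = 0.0287). Selenbp2 also passed without mouse av20 (edgeR adjusted p = 0.0377), both passed without a filter on low counts (0.00332 and 0.00792), and Hsd3b5 passed when only the groups compared were fitted (0.0152). Under DESeq2, RLE or upper-quartile factors and a minimum mean CPM, the number of members called stayed at 2. The call of Mup3 was lost without mouse av12, av17 or av20, with edgeR adjusted p of 0.0730, 0.0684 and 0.0943, and without av14 and av17 together (0.0516). Elovl3 (-0.74 ± 0.39), Cyp7b1 (-0.81 ± 0.42), Cyp4a12a (-0.15 ± 0.34) and Mup20 (0.14 ± 0.26) did not pass. This comparison changes genotype and BSO together.

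BSO itself, among Cse-/- livers on the no-Trp diet, moved none of the 8 past the threshold of edgeR, where 0.793% of all genes were called. None of the 8 had an unadjusted p under 0.05, and DESeq2 also called 0. The values ran from -1.35 ± 0.77 for Selenbp2 and -0.97 ± 0.69 for Serpina4-ps1 to 0.25 ± 0.35 for Cyp4a12a. Tryptophan removal in Cse+/- mice gave 0 calls by edgeR and by DESeq2 and 0 unadjusted p under 0.05, where 0.0474% of all genes were called with 3 against 2 livers. Selenbp2 was at -1.27 ± 0.90 there, Serpina4-ps1 at -0.68 ± 0.78 and Hsd3b5 at -0.01 ± 0.52. The ranges of Serpina4-ps1 and Mup3 did not overlap there (14.6% of all genes were lower without overlap). The 95% interval of Selenbp2 ran from -2.87 to 0.16 for BSO and from -3.04 to 0.51 for tryptophan removal, and that of Serpina4-ps1 from -2.33 to 0.40 and from -2.21 to 0.85, and these intervals hold 0 as well as several-fold falls.

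**Figure D3:**
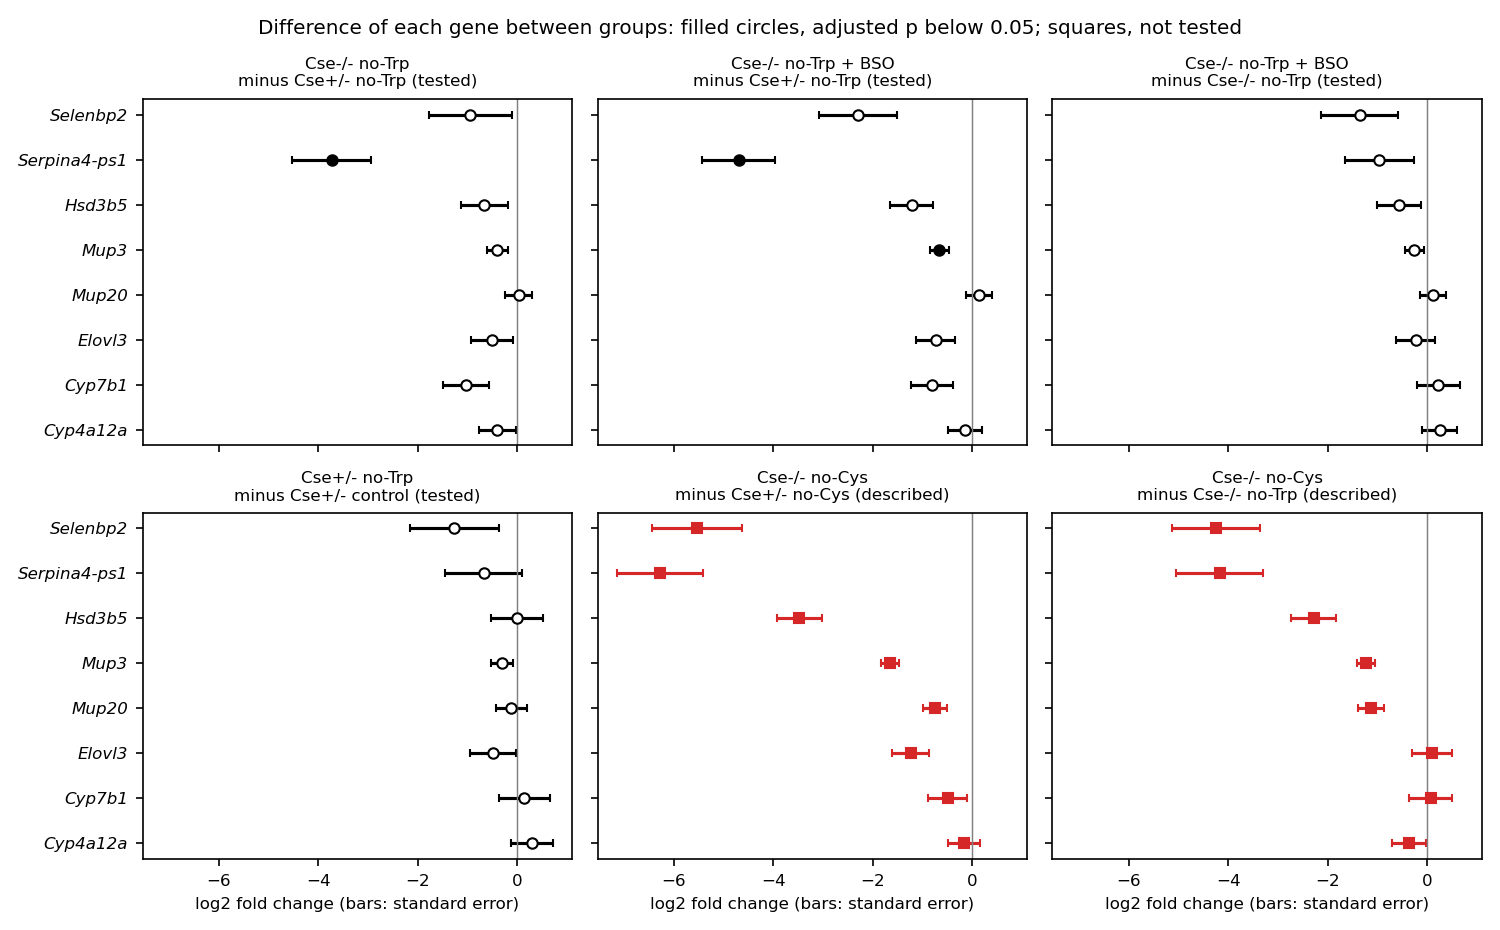
Log2 fold change of each gene with its standard error (bars) in the 4 tested comparisons (circles, filled where the edgeR adjusted p was below 0.05) and in 2 described comparisons (red squares, no test). Serpina4-ps1 was called in both genotype comparisons on the no-Trp diet and Mup3 in that with BSO.

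The members were also compared between livers of the same group. After the group mean was taken from each log2 CPM, 26 of 28 pairs of members correlated positively over the 20 livers, with a median Pearson r of 0.44, given as a description since the livers without cysteine chose the genes. Serpina4-ps1 with Hsd3b5 had r = 0.82 (Spearman rho = 0.73), Selenbp2 with Hsd3b5 r = 0.71 (rho = 0.71), Selenbp2 with Serpina4-ps1 r = 0.65 (rho = 0.62) and Mup3 with Elovl3 r = 0.54 (rho = 0.59). These 4 pairs, which are plotted, are those with the lowest permutation p by Pearson r over all 20 livers, and not those with the highest r. Mup3 with Hsd3b5 had r = 0.73, Selenbp2 with Cyp7b1 r = 0.69 and Mup20 with Cyp4a12a r = 0.63. Without the 2 livers farthest from the median of the first gene of each pair, r of the plotted pairs was 0.76, 0.76, 0.63 and 0.44. In the same way r was 0.40 for Mup3 with Hsd3b5, 0.61 for Selenbp2 with Cyp7b1 and 0.66 for Mup20 with Cyp4a12a. Elovl3 had the only negative values, -0.16 with Selenbp2 and -0.10 with Serpina4-ps1.

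The pairs were tested in the 12 livers of the other 4 groups, by permutation within groups. None of 28 pairs passed after Benjamini-Hochberg adjustment, by Pearson r or by Spearman rho, and 4 had an unadjusted p under 0.05 by Pearson r. The smallest unadjusted permutation p by both measures was that of Selenbp2 with Cyp7b1, at 0.00716 for r = 0.88 (adjusted permutation p = 0.173) and 0.00316 for rho = 0.92 (adjusted permutation p = 0.0885), and r was 0.85 without the 2 livers farthest from the median. Serpina4-ps1 with Hsd3b5 had r = 0.90 (adjusted permutation p = 0.202, with rho = 0.71 and 0.364) and r = 0.78 without such livers.

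Certain livers were lowest or highest of their group in several members. Mouse av01 was the lowest of the Cse+/- no-Cys group in Selenbp2, Serpina4-ps1, Hsd3b5, Mup3, Cyp7b1 and Elovl3, and mouse av15 the lowest of the Cse-/- no-Trp group in all 8. Mouse av10 was the highest of the BSO group in Selenbp2, Serpina4-ps1, Hsd3b5 and Cyp7b1, but the lowest of that group in Mup20 (735.5 CPM), Cyp4a12a (74.7 CPM) and Elovl3 (16.2 CPM). The summed level of 8 acute-phase genes, which rise in the liver during inflammation, was 16248 CPM in av01, with a range of 6665 to 9642 CPM among the rest of that group, 7938 CPM in av15 and 9494 CPM in av10. In mouse av17, where that sum was highest at 18173 CPM, Selenbp2 was the highest of its group. The part of the acute-phase genes in the relations was not tested.

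**Figure D4:**
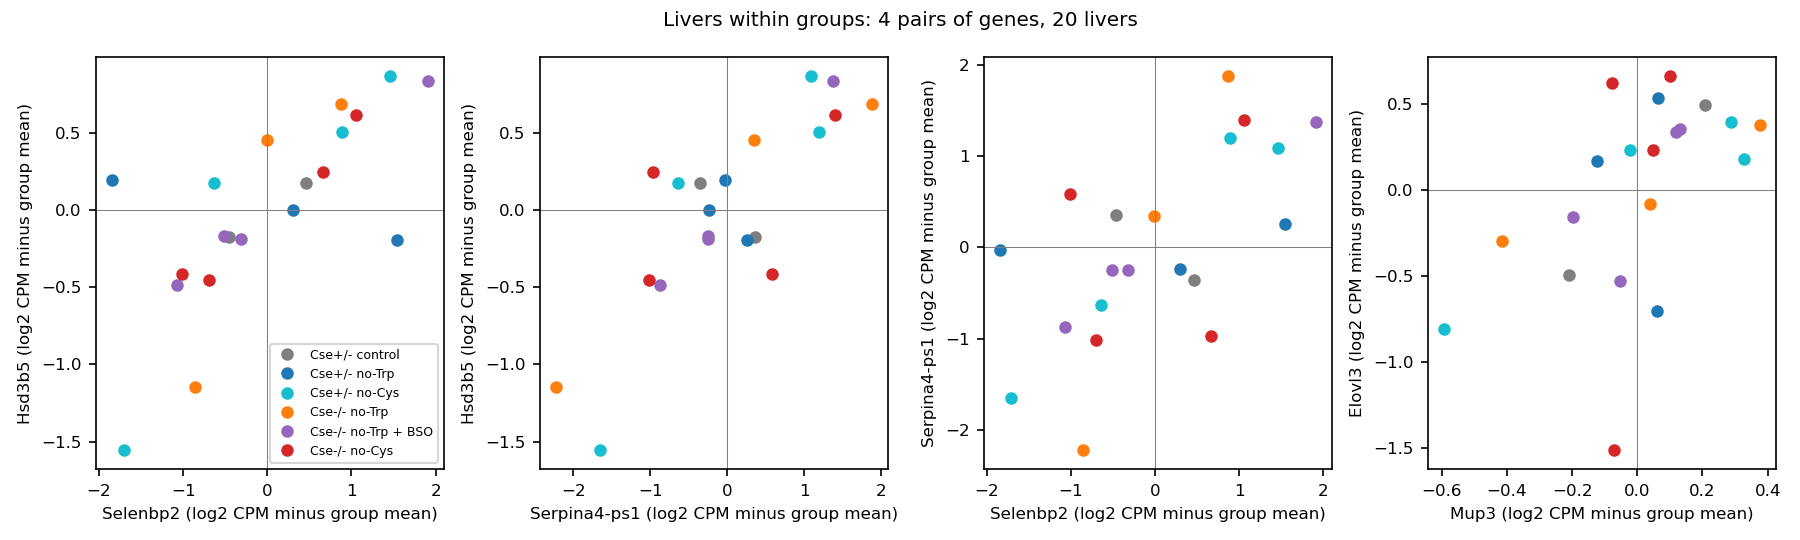
Deviation of each liver from its group mean (log2 CPM) for 4 pairs of genes, coloured by group, over 20 livers with no test. The pairs of Selenbp2, Serpina4-ps1 and Hsd3b5 have r of 0.65 to 0.82, and Mup3 with Elovl3 has r of 0.54.

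The genes most like each member in these deviations were searched among 12582 genes with a mean of at least 1 CPM, and are given over 20 livers with no test. Selenbp2 was most like the carboxylesterase Ces3b (r = 0.88), Hao1 (0.86) and Serpina9 (0.86), and Hsd3b5 most like the sorting receptor Sort1 (0.91), Adgrf1 (0.86) and Isg15 (0.84). Serpina4-ps1 was most like the proteasome subunit Psmb8 (0.85), B4galt7 (0.83) and Ifi27l2a (0.82). Mup20 was most like the male-biased cytochrome Cyp2d9 (0.87), and Cyp7b1 most like Rps6ka4 (0.82), Mup21 (0.79) and Mup7 (0.79). Mup3 was most like Pdilt (0.91), Cyp4a12a most like Adcy5 (0.93) and the transcription factor Nfix (0.90), and Elovl3 most like Dpp7 (0.86) and another elongase, Elovl2 (0.84).

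The other male-biased genes known to depend on GH, 21 of them, all tested, gave the following counts. In Cse-/- against Cse+/- no-Cys livers, 12 of 21 were called lower by edgeR and 0 higher, where 12.2% of all genes were called lower and 23.8% were called in all. Their median log2 fold change was -1.43. The members were chosen in these livers, and this list and those below with earlier results of these data known. The counts of the lists in these livers are therefore no independent support. The lowest called was the proteoglycan Cspg5, at -3.56 ± 0.68 (edgeR adjusted p = 0.00089), a gene at 1.87 CPM or less. The serine protease inhibitor Serpina1e fell by -2.83 ± 0.53 (edgeR adjusted p = 0.00073), from 1434 to 5234 CPM in Cse+/- to 141 to 752 CPM in Cse-/- livers. Hsd3b2, a relative of Hsd3b5, fell by -1.24 ± 0.15 (edgeR adjusted p = 1.33e-05) and was at 15.2 to 22.7 CPM against 39.4 to 54.5 CPM. The smallest called fall was that of Cyp2d9, at -0.68 ± 0.13 (edgeR adjusted p = 0.00087).

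The list was also tested on the no-Trp diet. In Cse-/- against Cse+/- livers 1 of 21 was called lower (1.24% of all genes were), Serpina1e, by -2.34 ± 0.59 (edgeR adjusted p = 0.0408), and the median was -0.63. With BSO 3 of 21 were called lower (5.4% of all genes were), with a median of -0.55, from Ugt2b38, a glucuronosyltransferase, at -2.77 ± 0.57 (edgeR adjusted p = 0.00413) to Hsd3b2 at -0.55 ± 0.15 (edgeR adjusted p = 0.0257). Between BSO and no BSO in Cse-/- livers, Gstp1, a glutathione transferase, was the 1 call of 21 (0.793% of all genes were called) and rose by 1.67 ± 0.28 (edgeR adjusted p = 0.0057). Tryptophan removal in Cse+/- mice gave 0 calls of 21 by edgeR (0.0474% of all genes were called).

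Few of the female-biased genes that depend on GH were called. Of 24 genes 14 passed the filter on low counts. In Cse-/- against Cse+/- no-Cys livers 1 was called (11.6% of all genes were called higher), the cytochrome Cyp2a4, which rose by 2.41 ± 0.54 (edgeR adjusted p = 0.00313), from 0.451 to 2.76 CPM to 4.19 to 11.9 CPM. Cyp2b9, another cytochrome, narrowly missed the threshold there, at 2.65 ± 0.96 (edgeR adjusted p = 0.0501). The median of the 14 was 0.36. On the no-Trp diet 1 of 14 was called between the genotypes (2.64% of all genes were called, 1.4% higher), the cytochrome Cyp2b9, which rose by 5.34 ± 1.28 (edgeR adjusted p = 0.0329), from 0.272 to 8.13 CPM to 29.3 to 306 CPM. Cyp2b9 rose also with BSO against Cse+/- no-Trp livers, by 4.27 ± 1.21 (edgeR adjusted p = 0.0273), where Tox was also called higher and Ntrk2, at -2.64 ± 0.77 (edgeR adjusted p = 0.0319), lower. In that comparison 6.53% of all genes were called higher and 5.4% lower.

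**Figure D5:**
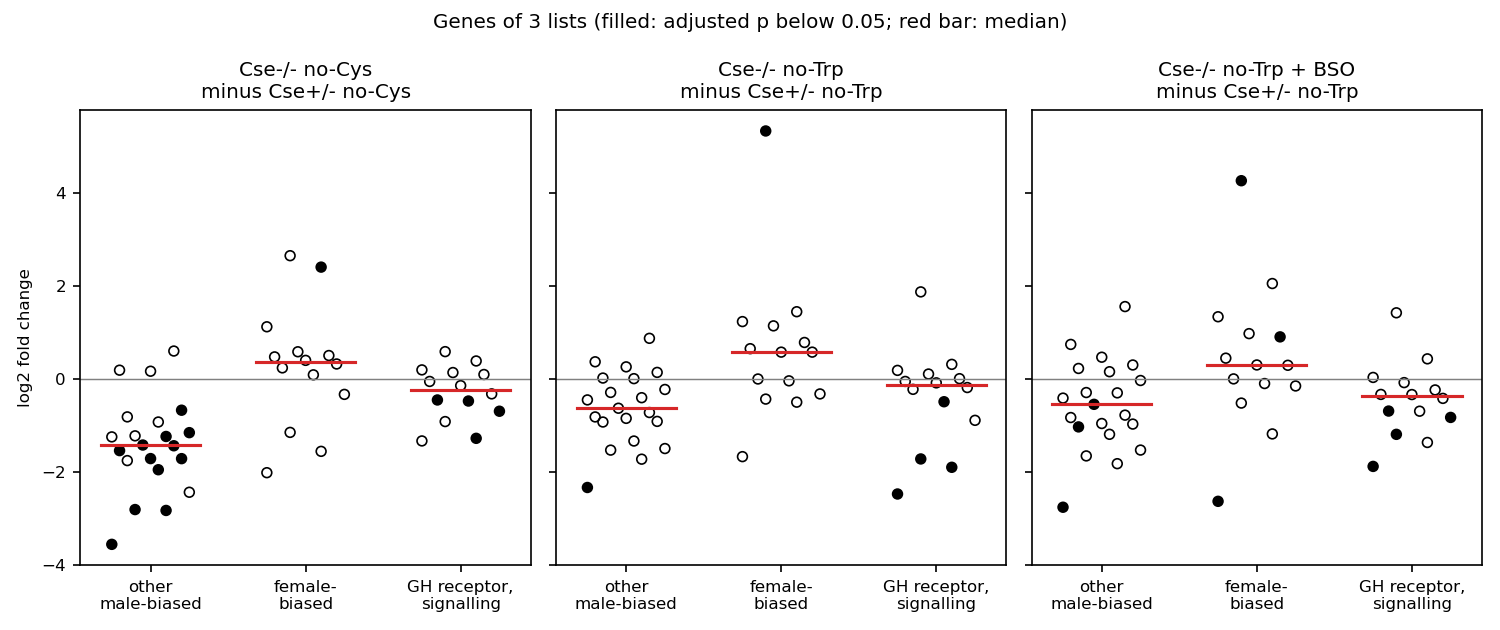
Log2 fold change of each tested gene of the other male-biased (21), female-biased (14) and GH receptor and signalling (14) lists in 3 comparisons, filled where the edgeR adjusted p was below 0.05, with red bars at the median. The male-biased median is -1.43 without cysteine, -0.63 on the no-Trp diet and -0.55 with BSO.

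The receptor and signalling genes of the GH pathway, were 14 in number and all tested. In Cse-/- against Cse+/- no-Cys livers 4 were called lower and 0 higher, where 12.2% of all genes were called lower. The GH receptor Ghr fell by -1.28 ± 0.14 (edgeR adjusted p = 6.69e-06), from 408 to 606 CPM to 178 to 289 CPM, with no overlap. The smallest called fall was that of the kinase Jak2, at -0.46 ± 0.13 (edgeR adjusted p = 0.016), and the others were Igf1, the growth factor that GH induces, and Igfals, its carrier in blood. Cish, a feedback inhibitor that STAT5 switches on within a pulse, was at 3.61 to 13.2 CPM in the Cse+/- and at 6.01 to 8.85 CPM in the Cse-/- no-Cys livers.

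On the no-Trp diet 4 of 14 were called lower in Cse-/- against Cse+/- livers, where 1.24% of all genes were. Among these Cish fell furthest, by -2.48 ± 0.37 (edgeR adjusted p = 0.00155), from 27.7 to 52.5 CPM to 3.37 to 11.3 CPM. The feedback inhibitor Socs2 fell by -1.73 ± 0.42 (edgeR adjusted p = 0.0344), and the smallest called fall was that of Igf1, at -0.49 ± 0.12 (edgeR adjusted p = 0.0295). Onecut1 was called lower at the edge of the threshold, at -1.91 ± 0.51 (edgeR adjusted p = 0.05). With BSO 4 were called lower against Cse+/- no-Trp livers (5.4% of all genes were), from Cish at -1.89 ± 0.32 (edgeR adjusted p = 0.00118) to Igf1 at -0.69 ± 0.11 (edgeR adjusted p = 0.000536). Bcl6, also on this list, was higher in Cse-/- than in Cse+/- no-Trp livers, at 28.9 to 106 CPM against 14.8 to 24.4 CPM. In the BSO livers Bcl6 was at 16.4 to 70.6 CPM.

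Cish was high in 5 of 20 livers, those of the Cse+/- control and no-Trp groups, at 27.7 to 52.5 CPM, and at 13.2 CPM or less in the 15 others. The Cse+/- no-Cys livers were thus as low in Cish as the Cse-/- livers, with a log2 fold change of -2.11 ± 0.37 against the control livers (edgeR adjusted p = 0.0059, 2.18% of all genes called) and of -2.40 ± 0.34 against the Cse+/- no-Trp livers (edgeR adjusted p = 0.000522, 8.04% of all genes called). Serpina4-ps1 was also highest in those 5 livers, at 266 CPM or more against 173 CPM or less in the 15 others. Hsd3b5 was not, since 3 of the Cse+/- no-Cys livers exceeded all 5. The 15 others include the no-Cys livers, whose values chose the members, so that this likeness is a description with no test. Among the no-Cys livers Cish overlapped between the genotypes, whereas Serpina4-ps1 did not.

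Relatives of the members gave a mixed picture. Of 11 paralogs 9 were tested, and in Cse-/- against Cse+/- no-Cys livers 3 were called lower (12.2% of all genes were) and 0 higher, with a median of -0.49. The lowest was Cyp7a1, the enzyme of the first step of bile acid synthesis, at -1.43 ± 0.51 (edgeR adjusted p = 0.0466), and the smallest called fall was that of Hsd3b2. Cyp4a12b was at 0.16 ± 0.31 (edgeR adjusted p = 0.736), beside -0.17 ± 0.32 for Cyp4a12a.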

How the data were processed

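Poly(A) RNA of 20 mouse livers was sequenced as paired ends of 61 cycles. The counts were deposited by the authors as whole reads per Ensembl gene, not normalized. Per the labels, HISAT2 2.1.0 and HTSeq 0.11.0 were used with GRCm38. No source used here states the annotation release or strand setting. Columns were assigned to groups through the study's list of mice, and 1 of 21 columns was not used because its mouse is not on that list. Symbols and coordinates came from GENCODE M21 for GRCm38 and were found for 45229 of 46078 genes.

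Genes were filtered with filterByExpr (minimum count 10, minimum total 15) with scaling by TMM. In edgeR 4.0.16, a quasi-likelihood fit with 6 group means covered all 20 libraries (R 4.3.3). P values were two-sided, and those adjusted after Benjamini and Hochberg for the 14759 genes were held to 0.05. CPM are TMM scaled. The standard error is that of the log2 fold change. Deviations of log2 CPM (prior count 2) from group means were correlated in Python 3.11.15 with scipy 1.17.1, and tested two-sided, in the 12 livers of the groups that did not choose the genes, by 100000 permutations within groups, adjusted over 28 pairs. That restriction was chosen after seeing the data. Scripts were tested on simulated data. Depth ranged from 11785740 to 57986121 counts. Counting error weighs most in genes of a few counts and was not compared with the spread between mice.

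The members and gene lists were chosen with earlier results of these data known. The genes named are all members, the called genes with the highest and lowest log2 fold change of each list, and the 3 genes most like each member, of which some are shown. Others, such as Cish beside its list, Selenbp1, Serpina1e, Hsd3b2 and the marker genes, were named after their values were seen. Each result was recomputed with DESeq2 1.42.0 (Wald test), upper-quartile or RLE factors, an unfiltered table, a mean of at least 1 CPM, a fit of only the groups compared, and leaving out each library. Leaving out av14 and av17 together was chosen after seeing the data.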

Additional observations from a re-analysis of the deposited data

Results flagged for a closer look

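In 24 sets of 4 livers (8 genes in 3 groups), a liver stood apart from the rest of its group by Dixon's criterion in 4, where chance gives about 1 in 20. For the no-Cys groups, whose values chose the genes, this is a description. Mouse av10 was the highest of the Cse-/- no-Trp + BSO group in 3 genes. It held 106 CPM of Selenbp2, against 13.4 to 22.6 CPM in the other 3 livers, 26.7 CPM of Serpina4-ps1, against 5.67 to 8.70 CPM, and 116 CPM of Hsd3b5, against 46.2 to 57.6 CPM. Mouse av08 was the lowest of the Cse-/- no-Cys group in Cyp7b1, at 106 CPM against 211 to 232 CPM. The same mouse was the lowest of its group in Elovl3, at 9.15 CPM.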

How the results depend on the processing

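No paired analysis was possible because the columns of the count table carry no replicate numbers of the labels. No result changed sign with a call. The number of members called stayed the same under DESeq2, RLE and upper-quartile factors and a minimum mean CPM. For Cse-/- against Cse+/- no-Trp livers it was 1, and 0 when only the groups compared were fitted or in some fits without 1 library (0 to 1). For BSO against Cse+/- no-Trp livers it was 2, with 4 without a filter on low counts, 1 without av14 and av17 together, and 1 to 4 without 1 library. Without 1 library, all genes called numbered 109 to 421 and 901 to 1679 in these comparisons, 36 to 172 for BSO against Cse-/- no-Trp and 2 to 9 for Cse+/- no-Trp against control. All genes called in Cse-/- against Cse+/- no-Trp livers numbered 727 by DESeq2 and 83 with only the groups compared, beside 389. For BSO against Cse-/- no-Trp they numbered 361 by DESeq2, 287 without a filter and 75 with only the groups compared, beside 117. For Cse+/- no-Trp against control they numbered 60 by DESeq2, 71 without a filter, 3 with only the groups compared and 3 without av14 and av17, beside 7. Over all 20 livers, which include those that chose the genes, 4 pairs of members pass the permutation test by Pearson r and 0 by Spearman rho, from which nothing is read, and the number was 0 without the Cse+/- no-Cys, the Cse-/- no-Trp or the BSO group and 0 without both no-Cys groups, which leaves fewer livers. Other causes were not tested. Groups of 2 to 4 livers and the low counts of Serpina4-ps1 in Cse-/- no-Cys livers limit the precision.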
